A study of Mus musculus with 4 samples.

Results

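Klk1, Klk1b5 and Klk1b8 are the 3 kallikrein genes named for the connecting tubule of the kidney, and they were followed by name among the 21 kallikrein genes listed in single-cell counts of mouse renal cortex. They were selected on their measured levels across cell classes, since earlier results of these data placed their transcripts in that segment, so the levels by class are given below as a description, with no test. The cells were dissociated by sieving and collagenase from the cortex of 1 harvested kidney and their mRNA was captured on barcoded beads in droplets (Drop-seq), with 12 bases that mark the cell and 8 bases (the UMI) that mark the molecule. Of the 4 libraries, 2 came from Akita mice (C57BL/6-Ins2Akita/J, which carry a mutated insulin gene and become diabetic) aged 116 and 119 days, and 2 from wild-type counterparts aged 45 and 51 days. Age ran with genotype, so the effects of both cannot be told apart. The labels also give a housing time that is longer than any of these ages. No other allele or treatment is named.

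Tissue kallikrein is a secreted serine protease that cuts kininogen to release a kinin peptide, and the kinin acts on B-type receptors until peptidases such as angiotensin-converting enzyme and neprilysin degrade it. In the kidney, kallikrein is made in the connecting tubule, the stretch between the distal convoluted tubule and the collecting duct where calcium uptake, sodium uptake through the epithelial sodium channel and potassium secretion are adjusted. In the mouse, Klk1 encodes the true tissue kallikrein, and a cluster of duplicated Klk1b genes and pseudogenes lies beside it.

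On GRCm38, Klk1 (ENSMUSG00000063903) spans chr7:44225360-44229618 and Klk1b5 (ENSMUSG00000066512) lies just before it at chr7:44215945-44220703. Klk1b8 (ENSMUSG00000063089) lies toward the other end of the Klk1b genes at chr7:43950664-43954941. All 3 are protein-coding genes on the plus strand with 5 exons and the same coding length of 786 bases, stop codon included. Klk1b5 differs from Klk1 at 38 of these bases (95.2% identity) and Klk1b8 at 139 (82.3% identity). The 8 Klk1b genes of this coding length in the files range from 81.4% to 95.2% identity with Klk1, and Klk1b5 is the closest. Drop-seq reads come from the 3′ end of a transcript, so the coding part of exon 5, which is 156 bases in each gene, is shown to let the genes be compared where reads fall. Capitals mark the bases that differ from Klk1 in Klk1b5 and Klk1b8, and in Klk1 the bases at which at least 1 of these paralogs differs. The sequences are from the GENCODE M21 transcripts, plus strand, at chr7:44229414-44229569 (Klk1), chr7:44220499-44220654 (Klk1b5) and chr7:43954740-43954895 (Klk1b8).
Klk1: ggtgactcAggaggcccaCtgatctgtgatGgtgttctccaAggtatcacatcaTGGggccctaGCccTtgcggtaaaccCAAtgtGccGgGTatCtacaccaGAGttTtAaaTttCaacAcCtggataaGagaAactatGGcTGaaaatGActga
Klk1b5: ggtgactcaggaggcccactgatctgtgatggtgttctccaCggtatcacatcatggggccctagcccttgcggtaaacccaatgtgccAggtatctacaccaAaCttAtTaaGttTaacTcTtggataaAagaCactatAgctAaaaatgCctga
Klk1b8: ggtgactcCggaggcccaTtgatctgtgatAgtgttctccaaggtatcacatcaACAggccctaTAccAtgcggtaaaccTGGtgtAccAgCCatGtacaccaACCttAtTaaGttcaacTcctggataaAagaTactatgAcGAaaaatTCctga
Klk1b5 differs from Klk1 at 15 of these bases and shares with it a run of 47 bases, and Klk1b8 differs at 31 with a longest shared run of 23. Over the last 300 bases of each transcript, 54.7% of the 25-base windows of Klk1, 41.3% of those of Klk1b5 and 15.9% of those of Klk1b8 occur letter for letter in a transcript of another kallikrein gene. At 50 bases the shares are 9.56%, 4.78% and 0%. Counting only windows that occur in Klk1 itself, Klk1b5 has 88 of 276 at 25 bases and 0 of 251 at 50 bases. Klk1b8 has 0 at both lengths, so its shared windows lie in other kallikrein genes. Such windows count exact matches only, and how reads with mismatches were assigned was not tested. The length of the cDNA read is not given in the sources used here. The low counts of the paralogs are therefore uncertain, since the authors' counting could divide reads of near-identical genes.

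Akita files totalled 1016719 and 1200209 UMIs, and wild-type files 1303453 and 1115055. Barcodes with 200 or more genes and no more than 50% mitochondrial UMIs were taken as cells, which left 311 and 600 Akita cells and 564 and 441 wild-type cells, 1916 in all. The same 884 barcodes occur both in Akita replicate 2 and in Wild-type replicate 1, against 3 or 4 shared ones for every other pair of files. Of these, 424 were kept as cells in both files, so most barcodes kept in these libraries stand in both genotypes, and the main levels, shares and comparisons are given below also with each of them kept in 1 file. In retained cells, Klk1 had 6972 UMIs, Klk1b8 81 and Klk1b5 73, together 7126 of the 7242 UMIs of all kallikrein genes.

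Cells were clustered without any kallikrein gene and named from marker genes. A cluster of 52 cells, 41 with each shared barcode kept in 1 file, carried S100g, Hsd11b2, Calb1 and Kl among its 50 leading genes and is called connecting tubule-like. S100g and Calb1 encode the calcium-binding calbindins D9k and D28k, Hsd11b2 encodes the enzyme that inactivates glucocorticoids in aldosterone-sensitive cells, and Kl encodes klotho. S100g stood at 62460 CPM (UMIs of the gene per 1000000 UMIs of the same cells) in these cells, against 4374 CPM in distal convoluted tubule-like cells and 282 CPM in proximal tubule-like cells. Calb1 reached 6185 CPM, Kl 1440 CPM and Hsd11b2 685 CPM, the last from 7 of the 52 cells. In all, 8 of the 9 connecting tubule markers were highest in this class, with Atp2b1, a plasma membrane calcium pump, as the exception. S100g, Hsd11b2, Calb1 and Kl served to name the cluster, so their rank is no separate support for the name. The markers Trpv5 and Slc8a1 rested on 2 and 3 UMIs in the class. The epithelial sodium channel subunits Scnn1b and Scnn1g were at 142 and 94.4 CPM, from 6 and 4 UMIs. Aqp2, the water channel of collecting duct principal cells, had 0 UMIs in the class, which allows up to 87.1 CPM (95% Poisson limit). The other principal cell markers included Aqp3 with 2 UMIs and Gata3 with 4. Markers of the neighbouring segments were present. The 9 distal convoluted tubule markers, none at 0, summed to 3942 CPM, with Slc12a3 at 1086 CPM in 50% of the cells. The thick ascending limb markers summed to 1534 CPM and the intercalated markers to 614 CPM. All markers of podocytes, endothelium, macrophages and fibroblasts were at 0. The 16 proximal tubule markers, 3 of them at 0, summed to 9702 CPM in the class. By library the sum was 6671 and 8162 CPM in Akita, against 5315 and 15457 CPM in wild type, and its part in the results was not tested. The androgen-regulated proximal tubule gene Kap made up most of this, with 7695 CPM against 41054 CPM in proximal tubule-like cells. Intervals and limits for counts cover counting error only.

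Klk1 took 7.39% of all UMIs of the connecting tubule-like cells, with 3129 UMIs and 73862 CPM (95% Poisson interval 71296 to 76496). It ranked behind only the mitochondrial ribosomal RNA mt-Rnr2 among the 5203 genes detected there. The other tubule classes were lower. Intercalated-like cells (108 cells), which move acid and base, had 7167 CPM. Thick ascending limb-like cells (127 cells, a mixed class with more Slc12a3 than Slc12a1, at 2824 and 1067 CPM) had 5329 CPM, and distal convoluted tubule-like cells (111 cells), which use the thiazide-sensitive Slc12a3, had 4475 CPM. Proximal tubule-like cells, 1480 of the 1916, had 417 CPM. The level in connecting tubule-like cells was thus 10.3-fold that of intercalated-like cells and 177-fold that of proximal tubule-like cells. The intercalated-like level rests in large part on 1 barcode found in both genotypes, with 173 and 172 of the 856 Klk1 UMIs of that class. With each shared barcode kept in 1 file, Klk1 was at 69761 CPM in 41 connecting tubule-like cells, 6241 CPM in intercalated-like cells, 5034 CPM in thick ascending limb-like cells, 4322 CPM in distal convoluted tubule-like cells and 457 CPM in proximal tubule-like cells.

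The order held at both ends in every library. In connecting tubule-like cells Klk1 was at 29872 and 82313 CPM in the Akita libraries and at 82743 and 68772 CPM in the wild-type libraries. Akita replicate 1 was the lowest of the 4, from 5 cells, and it still exceeded every other class of its library. Intercalated-like cells had 4239 and 7926 CPM in Akita, against 10024 and 5317 CPM in wild type. Thick ascending limb-like cells had 1370 and 8221 CPM in Akita, against 5607 and 5043 CPM in wild type. Distal convoluted tubule-like cells had 5538 and 4973 CPM in Akita, against 4138 and 2087 CPM in wild type. The ranges of these 3 classes overlap, so their order is not resolved beyond the spread over libraries. Proximal tubule-like cells had 352 and 355 CPM in Akita, against 277 and 697 CPM in wild type, below the lowest value of each of the other 4 classes. With each shared barcode kept in 1 file, connecting tubule-like cells of Wild-type replicate 1 had 12786 CPM, from 2 cells, again the highest of that library, while its 1 remaining intercalated-like cell had 0 Klk1 UMIs. The level in the class depends on how its cells are drawn: with the distal cells clustered from log values in place of Pearson residuals, an alternative chosen after seeing the data, 5 and 36 Akita cells and 26 and 19 wild-type cells fell into it. Klk1 was then at 17498 and 44279 CPM in Akita, against 34382 and 55658 CPM in wild type.

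**Figure D1:**
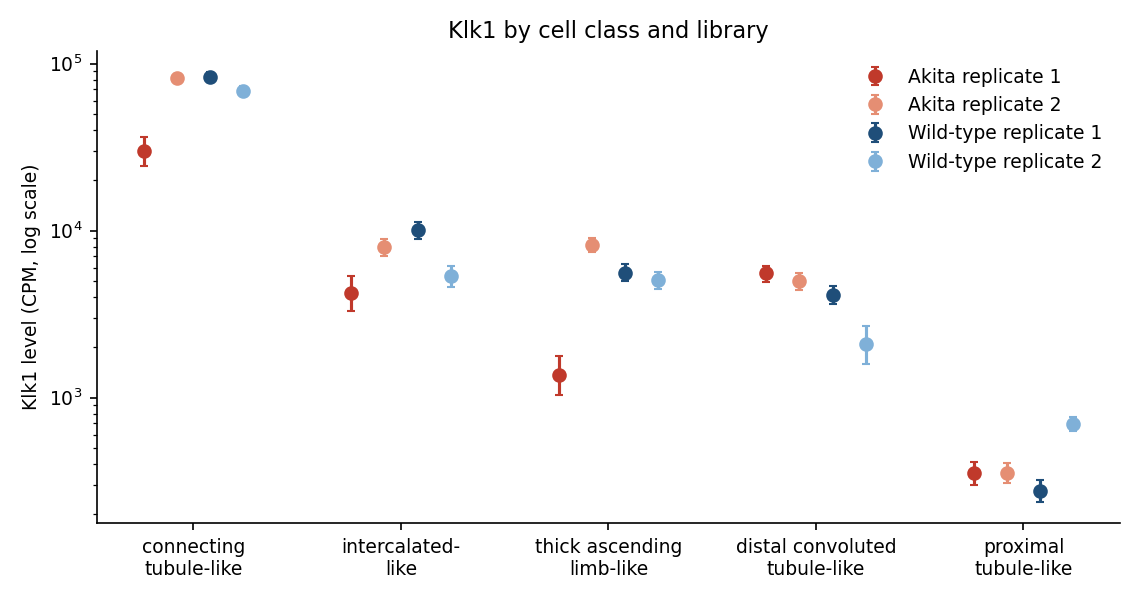
Klk1 level in CPM (log axis) in 5 cell classes, with 1 point for each library, with 95% Poisson intervals. The connecting tubule-like points lie between 29872 and 82743 CPM, above all points of the other classes, and the proximal tubule-like points lie lowest at 277 to 697 CPM.

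Single cells showed the same contrast with a wide spread inside the class. All 52 connecting tubule-like cells had a Klk1 UMI, with a lowest count of 1, a median of 58 and a highest of 172. The share of a cell's UMIs that came from Klk1 had a median of 7.01% there and reached 20.0%. By library this median was 2.95% and 7.53% for Akita cells, against 8.03% and 7.05% for wild-type cells. Of the 5 cells of Akita replicate 1, the highest had 35 Klk1 UMIs and 5.54% of its UMIs from Klk1, below the median cell of each of the other libraries in share. In the other distal classes the median cell had 2 Klk1 UMIs, and in proximal tubule-like cells 0.

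**Figure D2:**
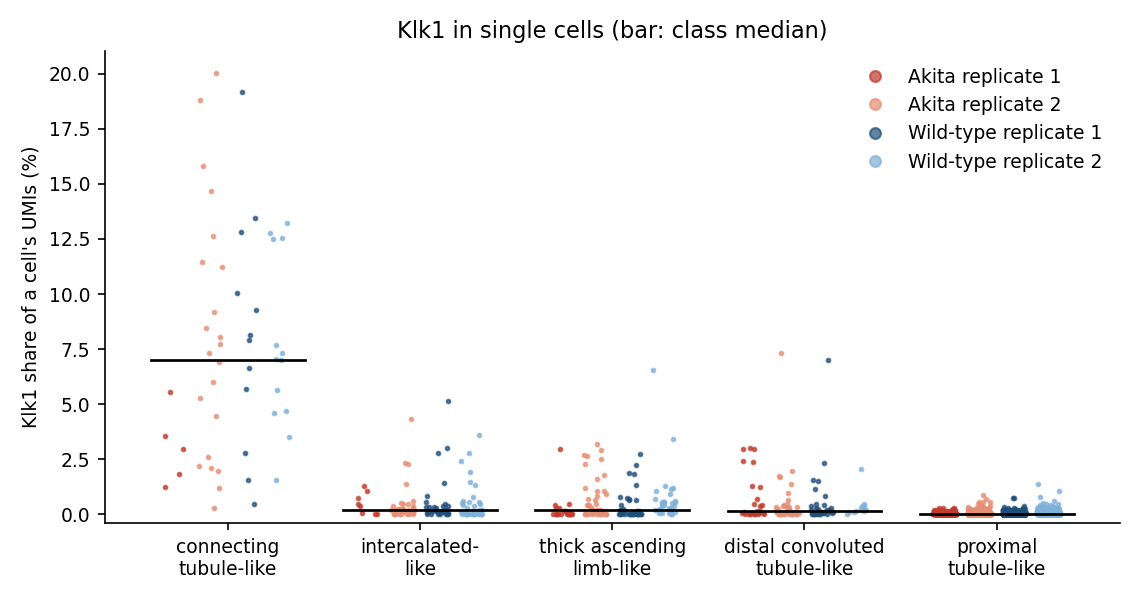
Share of each cell's UMIs that came from Klk1 (%), by cell class and library, 1 point per cell, with a bar at the class median. The connecting tubule-like median is 7.01% with cells up to 20.0%, while the medians of the other classes are at or under 0.202%.

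Klk1 was also detected outside the class. A Klk1 UMI was found in 74.8% of distal convoluted tubule-like cells, 67.7% of thick ascending limb-like cells, 72.2% of intercalated-like cells and 31.5% of proximal tubule-like cells. Their median depths were 1193, 737, 794 and 785 UMIs per cell. When each cell was thinned to 500 UMIs, leaving out 13, 32, 20 and 374 shallower cells, the shares were 59.2%, 57.9%, 67.0% and 17.4%, and that of the connecting tubule-like cells remained at 100% with 12 cells left out. Barcodes with under 200 genes, which were not kept as cells, had 1008 and 2030 Klk1 CPM in the Akita files and 1534 and 1576 CPM in the wild-type files. Proximal tubule-like cells were below this level in each library as a class. Within the class, 11 cells had 10 or more Klk1 UMIs, at a median depth of 18032 UMIs. A cluster of 32 of its cells, which came from the distal pool, had 2398 CPM of Klk1 with 3445 CPM of Slc12a3 and 2006 CPM of Umod. Macrophage or dendritic-like cells, which should lack the gene, had a Klk1 UMI in 46.2% of 13 cells at a median depth of 585 UMIs.

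The other distal classes were above the level of these barcodes in every library, from 1370 CPM against 1008 CPM for the thick ascending limb-like cells of Akita replicate 1 upward. The ratio of Klk1 UMIs to S100g UMIs is set beside this, because connecting tubule-like cells carry both in quantity. It was 1.18 in connecting tubule-like cells, 1.02 in distal convoluted tubule-like cells, 2.45 in thick ascending limb-like cells, 4.39 in intercalated-like cells and 1.48 in proximal tubule-like cells. It varied by library. In intercalated-like cells it was 34.0 (68 over 2 UMIs) and 3.48 in Akita, against 3.72 and 7.23 in wild type. In thick ascending limb-like cells it was 0.444 and 3.58 in Akita, against 2.62 and 3.41 in wild type. The intercalated-like cell with the most Klk1 in Akita replicate 2 had 173 of the 310 Klk1 UMIs of its class there. That in Wild-type replicate 1 had 172 of 290, with the same barcode. This barcode also had 81 and 75 S100g UMIs and 27 and 22 UMIs of the intercalated marker Atp6v1g3. The part of mixed droplets or of cells at a class border in these values was not tested. In the thick ascending limb-like class, only 17 of the 127 cells, in 1 of its 3 clusters, had high Slc12a1 (10077 CPM), and the other clusters had 37.9 and 40.0 CPM with 3005 and 3719 CPM of Slc12a3.

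Connecting tubule-like cells held 44.9% of the Klk1 UMIs, from 2.71% of the cells and 1.5% of all UMIs. Counting shared barcodes in 1 file only, they held 44.3%. Thick ascending limb-like cells held 15.6%, distal convoluted tubule-like and proximal tubule-like cells 13.3% each and intercalated-like cells 12.3%. By library, the connecting tubule-like cells held 14.6% and 50.5% in Akita, against 44.4% and 49.0% in wild type. In Akita replicate 1 it was the distal convoluted tubule-like cells that held the most, 45.4%, and their Klk1 level of 5538 CPM there was the highest of that class in any library. That level rests on few cells. Of the 26 cells, 8 had 10 or more Klk1 UMIs, among them cells with 61, 49, 48 and 41, and the median cell had 2. The part of near-identical barcodes in this level was not tested. The share averaged 32.5% ± 25.4 for Akita and 46.7% ± 3.28 for wild type (SD, n = 2 each). The difference had p = 1.00 by exact permutation, two-sided, and 2 against 2 libraries allow no p below 0.3333. Stricter limits on cells lowered the share in every library. With at most 25% mitochondrial UMIs it was 11.6% and 27.1% in Akita, against 32.1% and 33.3% in wild type. With at least 500 genes per barcode it was 3.70% and 18.9% in Akita, against 8.57% and 43.7% in wild type. Counting barcodes with the same first 11 bases as 1 cell gave 18.5% and 47.1% in Akita, against 45.0% and 32.1% in wild type. The small spread of the wild-type share thus depends on how near-identical barcodes are counted.

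**Figure D3:**
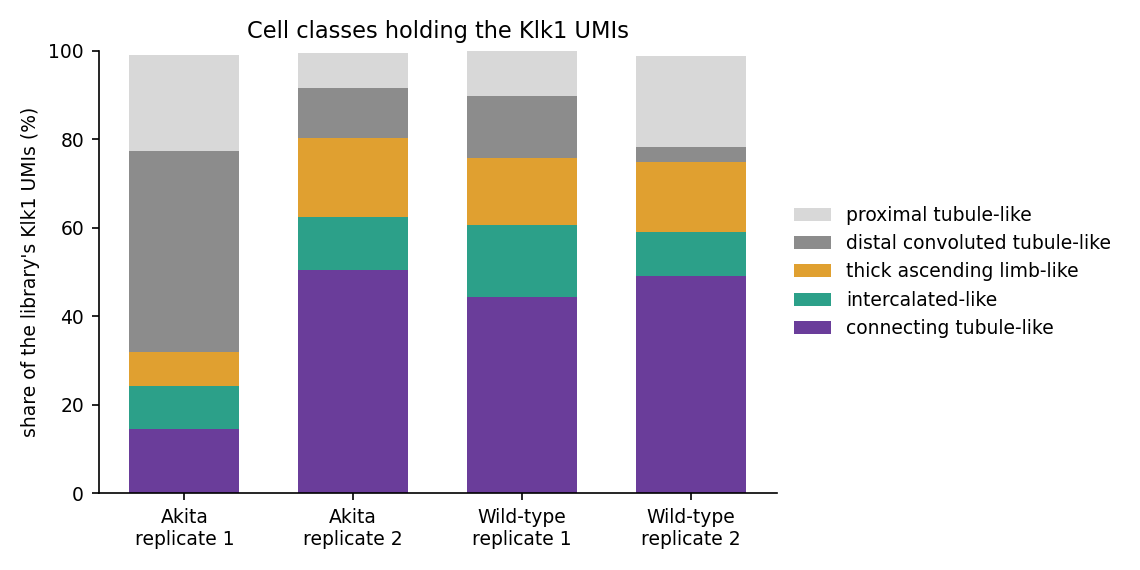
Share of each library's Klk1 UMIs (%) held by each of 5 cell classes, as stacked bars, with the remainder to 100% in other cells. Connecting tubule-like cells hold 14.6% in Akita replicate 1 and between 44.4% and 50.5% in the other libraries.

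Klk1b5 and Klk1b8 were found at a small and similar fraction of Klk1. In connecting tubule-like cells Klk1b5 was at 873 CPM (95% Poisson interval 615 to 1204, 37 UMIs) and Klk1b8 at 850 CPM (595 to 1176, 36 UMIs). Klk1b5 had 290 and 1005 CPM in the Akita libraries, against 625 and 1045 CPM in the wild-type libraries. Klk1b8 had 1160 and 565 CPM in the Akita libraries, against 1355 and 747 CPM in the wild-type libraries. These values rest on between 1 and 16 UMIs a library, and the libraries overlap within counting error. The next class for both was the intercalated-like one, with 117 CPM of Klk1b5 and 134 CPM of Klk1b8, and proximal tubule-like cells had 1.80 and 3.15 CPM.

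All 46 cells with a Klk1b5 UMI and all 60 cells with a Klk1b8 UMI also had Klk1, against 40.9% of all cells. Their median Klk1 counts were 60.5 and 24.5 UMIs. The 40.9% is not matched to them in class or Klk1 level. Of these cells, 20 and 23 were connecting tubule-like, and no cell had more than 4 UMIs of Klk1b5 or 5 of Klk1b8. As a share of the UMIs of both genes, Klk1b5 made up 1.17% beside Klk1 in connecting tubule-like cells (exact binomial 95% interval 0.824 to 1.61%) and 0.928% in all other cells (0.651 to 1.28%). Klk1b8 made up 1.14% beside Klk1 in connecting tubule-like cells (0.798 to 1.57%) and 1.16% in all other cells (0.845 to 1.55%). Per library over all retained cells, Klk1b5 made up 1.67% and 0.954% in Akita, against 0.611% and 1.31% in wild type. Klk1b8 made up 1.81% and 0.651% in Akita, against 1.43% and 1.31% in wild type. The ratio of each paralog to Klk1 thus differed little between the class and other cells, within intervals that overlap. With each shared barcode kept in 1 file, Klk1b5 made up 1.31% and Klk1b8 0.973% beside Klk1 in connecting tubule-like cells. Whether these UMIs are transcripts of the paralogs or Klk1 reads assigned to them was not tested.

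The rest of the family was rarer. In retained cells, 11 other protein-coding kallikrein genes had 81 UMIs in all, with 23 for Klk1b4, 9 each for Klk1b3, Klk1b21 and Klk1b22, 8 for Klk1b1, 7 for Klk1b9, 6 for Klk1b16, 5 for Klk1b24, 3 for Klk1b27 and 1 each for Klk1b11 and Klk13. A further 6 pseudogenes had 35 UMIs, led by Klk1b15-ps and Klk1b2-ps with 12 each, and followed by Klk1b10-ps with 4, Klk1b12-ps with 3, and Klk1b14-ps and Klk1b19-ps with 2 each. Klk1b7-ps had none.

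Over all retained cells of a library, Klk1 did not separate the genotypes. Akita libraries held 707 and 2595 UMIs of it, which is 1268 and 3434 CPM, and wild-type libraries 1790 and 1880 UMIs, which is 2202 and 2670 CPM. The Akita libraries were the lowest and the highest of the 4. The mean level was 2351 ± 1532 CPM for Akita and 2436 ± 331 CPM for wild type (SD, n = 2 each). The log2 fold change of Akita over wild type was −0.03 with a standard error of 0.34 and an adjusted p of 1.00 in edgeR's quasi-likelihood test with Benjamini-Hochberg adjustment over 7169 genes. In this comparison 0% of the genes tested had an adjusted p under 0.05 (DESeq2 also called 0), and 68 genes, 0.949%, had an unadjusted p under 0.05 in edgeR. DESeq2, given 20218 genes without that filter on low counts, had 5 such genes, so the counts are from unlike gene sets. One library could turn the direction: the log2 fold change of Klk1 was 0.54 without Akita replicate 1, −1.01 without Akita replicate 2 (adjusted p 0.138) and 0.06 without Wild-type replicate 2. The number of genes called was 1, 23 and 0 in these fits and 14 without Wild-type replicate 1. In such sums, fewer cells of a type and less RNA per cell cannot be told apart.

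Klk1b5 had 21.5 and 33.1 CPM in the Akita libraries, against 13.5 and 35.5 CPM in the wild-type libraries, with overlapping groups (log2 fold change 0.22 ± 0.47 SE, edgeR adjusted p 1.00). Leaving out Akita replicate 2 gave −0.22, and leaving out Wild-type replicate 1 gave −0.31. Klk1b8 had 23.3 and 22.5 CPM in the Akita libraries, against 32.0 and 35.5 CPM in the wild-type libraries. Both Akita values lay below both wild-type values, as was the case for 11% of all genes tested, and the log2 fold change was −0.56 ± 0.39 SE with an edgeR adjusted p of 1.00. The counts behind these levels are 13 and 17 UMIs in Akita and 26 and 25 in wild type.

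**Figure D4:**
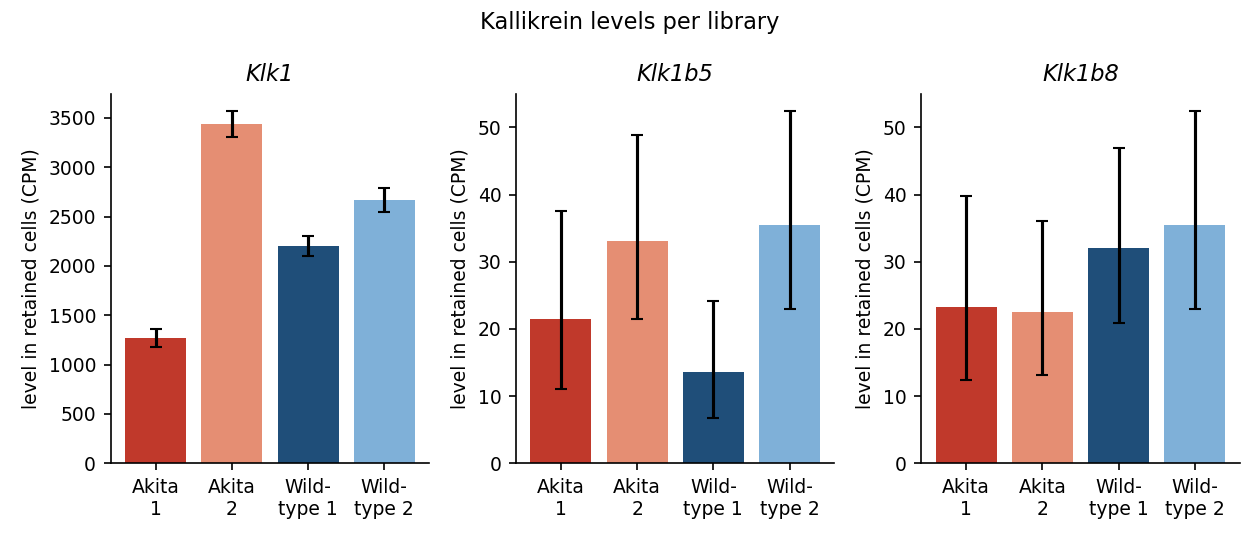
Level of Klk1, Klk1b5 and Klk1b8 in CPM over the retained cells of each library, with 95% Poisson intervals of the count. The Akita libraries are the lowest and the highest for Klk1, at 1268 and 3434 CPM, and the paralogs stay between 13.5 and 35.5 CPM.

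There were 5 and 22 connecting tubule-like cells from Akita and 12 and 13 from wild-type mice. They made up 1.61% and 3.67% of the Akita cells and 2.13% and 2.95% of the wild-type cells. Their share averaged 2.64% ± 1.46 for Akita and 2.54% ± 0.580 for wild type (SD, n = 2 each), and the exact permutation test gave p = 1.00. Within these cells, Klk1 averaged 56093 ± 37081 CPM for Akita and 75758 ± 9879 CPM for wild type (SD, n = 2 each), with a log2 ratio of −0.43 and an exact permutation p of 0.667. No genotype difference larger than the spread between libraries was seen in either measure, and Akita replicate 1 was the lowest library in both. S100g was at 49884 and 63917 CPM in the same Akita cells and at 72634 and 56676 CPM in the wild-type cells. The ratio of Klk1 to S100g there was 0.599 and 1.29 in Akita and 1.14 and 1.21 in wild type, so Akita replicate 1 stood apart more in Klk1 than in S100g. Other markers that named the class were also lowest in these 5 cells. Calb1 was at 2610 CPM (9 UMIs) and 6844 CPM in Akita, against 7190.5 and 5600 CPM in wild type. Kl had 0 and 32 UMIs in Akita, against 17 and 12 in wild type. The lower level in Akita replicate 1 was thus not particular to Klk1. Hsd11b2 had 2 and 16 UMIs in the Akita cells and 11 and 0 in the wild-type cells.

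The repeated barcodes bear on all of these values, and on the p-values, which treat the libraries as independent. All 12 connecting tubule-like cells of Wild-type replicate 1 and 14 of the 22 of Akita replicate 2 had a barcode present in both files. Of the 424 barcodes kept as cells in both, 423 fell into the same class in both. At the 11 that were connecting tubule-like in both files, Klk1 had 843 UMIs in Akita replicate 2 and 792 UMIs in Wild-type replicate 1. Of these 11 barcodes, 10 had relatively more of their UMIs in the Akita file. Over the 424 barcodes, Klk1 was found in both files at 113, in neither at 193 and in 1 file at 118, and the counts on a log2(UMI + 1) scale had a Pearson correlation of 0.881 across barcodes. Where the repeated reads come from was not tested, and these barcodes are not counted as replicates.

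**Figure D5:**
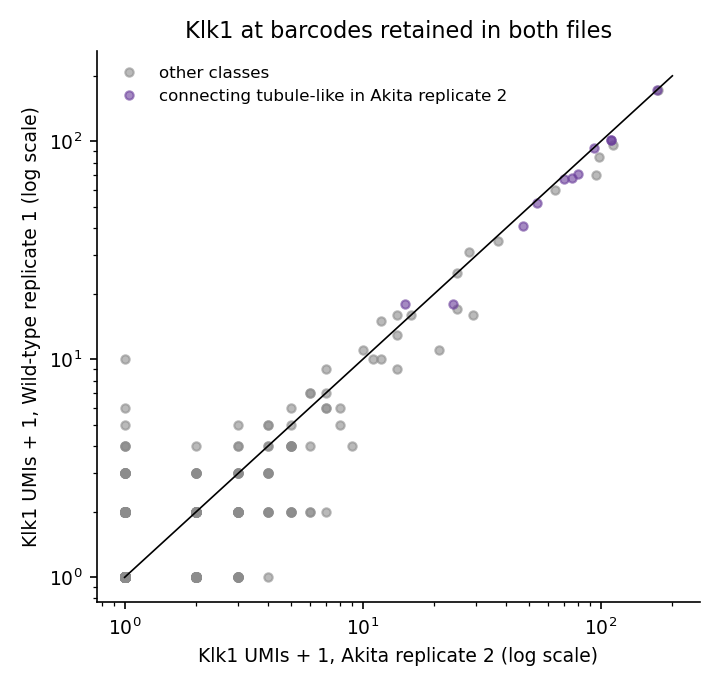
Klk1 UMIs plus 1 (log axes) at the 424 barcodes kept as cells in both Akita replicate 2 and Wild-type replicate 1, with connecting tubule-like cells of Akita replicate 2 in purple and a line of equal counts. Barcodes with many Klk1 UMIs lie along the line, up to 173 UMIs in Akita replicate 2 and 172 UMIs in Wild-type replicate 1.

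With each shared barcode kept in the file that held relatively more of its UMIs, the connecting tubule-like cells numbered 5 and 21 in Akita and 2 and 13 in wild type. Klk1 over all retained cells was then at 1268 and 4633 CPM in Akita, against 448 and 2670 CPM in wild type, with a log2 fold change of 1.00 ± 0.66 SE and an edgeR adjusted p of 0.999, where 0% of 6306 genes were called. Its groups overlapped, and 29.6% of those genes had groups that did not. In the connecting tubule-like cells it was at 29872 and 85234 CPM in Akita, against 12786 and 68772 CPM in wild type, the 12786 CPM resting on 2 cells. Klk1b5 was at 21.5 and 44.8 CPM in Akita, against 4.17 and 35.5 CPM in wild type over all retained cells. Klk1b8 was at 23.3 and 29.8 CPM in Akita, against 6.25 and 35.5 CPM in wild type, with groups that overlapped and a log2 fold change of 0.28. With the shared barcodes left out of both files, Wild-type replicate 1 had 0 connecting tubule-like cells and 18 Klk1 UMIs (262 CPM). The direction of Klk1 between the genotypes thus turned with the treatment of these barcodes, and passed no test either way.

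The genes that act with kallikrein were described from 4 lists, over all retained cells. Of 17 genes of the kinin pathway, 13 had a UMI and 8 were tested, and none was called. The median log2 fold change of the 8 was 0.21, against 0.00 over all genes tested. Kng2, a kininogen and thus the substrate, had 1912 CPM in connecting tubule-like cells, 1605 CPM in thick ascending limb-like cells, 1403 CPM in distal convoluted tubule-like cells and 58.0 CPM in proximal tubule-like cells. Over all cells it had 407 and 296 CPM in Akita, against 258 and 297 CPM in wild type (log2 fold change 0.33 ± 0.21 SE, edgeR adjusted p 1.00), and the groups overlapped. The level in connecting tubule-like cells rests on 81 UMIs. The other kininogen gene, Kng1, had 18 UMIs in all. The receptors were barely detected, with 3 UMIs for Bdkrb2 and 0 for Bdkrb1. When shared barcodes were counted in 1 file only, Kng2 had groups that did not overlap, at 407 and 325 CPM in Akita, against 213 and 297 CPM in wild type (log2 fold change 0.53 ± 0.24 SE, edgeR adjusted p 0.999). Groups did not overlap, in either direction, for 29.6% of the 6306 genes of that fit. Of the 8 kinin pathway genes tested there, 4 were higher in both Akita libraries and 0 lower. The share of all genes higher in both Akita libraries was not counted for that fit. In the main fit, 0 of the 8 had groups that did not overlap, in either direction. The pattern thus came only with that treatment of shared barcodes, which left Wild-type replicate 1 with 2 connecting tubule-like cells.

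Of the peptidases that break down kinins, Ace had 0 UMIs in connecting tubule-like cells, against 25.6 CPM in proximal tubule-like cells. A count of 0 in the class allows up to 87.1 CPM (95% Poisson limit). A lower level of Ace in the class was therefore not detectable at this depth. Mme, which encodes neprilysin, had 1 UMI (23.6 CPM) in connecting tubule-like cells, against 502 CPM in intercalated-like cells, its highest class. Xpnpep1, an aminopeptidase, had 0 UMIs in connecting tubule-like cells, against 57.1 CPM in proximal tubule-like cells, again within what a count of 0 allows. The carboxypeptidase Cpd was between 33.8 and 58.6 CPM in all 5 classes. Their log2 fold changes of Akita over wild type ranged from −0.03 for Ace and Cpd to 0.34 for Mme, none of them called.

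Of the 10 genes of the epithelial sodium channel and its proteases, 8 were tested and none was called. Scnn1a, the alpha subunit, had 50.2 and 31.8 CPM in Akita, against 18.5 and 24.1 CPM in wild type. Its groups did not overlap, which held for 12.6% of all genes tested in this direction, and its log2 fold change was 0.92 ± 0.39 SE (unadjusted p 0.032, edgeR adjusted p 1.00). In connecting tubule-like cells it had 212 CPM, its highest level, from 9 UMIs. Prss8 and St14, membrane proteases that act on the channel, were both lower in both Akita libraries, as were 11% of all genes tested, at log2 fold changes of −0.27 and −0.50 that were not called. When shared barcodes were counted in 1 file only, Scnn1a had a log2 fold change of 1.53 ± 0.51 SE (edgeR adjusted p 0.999), and the groups of St14 overlapped. No gene of the 4 lists was called in that fit either.

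Of 6 mineralocorticoid genes 4 were tested, and of 10 genes of distal potassium and calcium transport 6 were tested, with none called. Hsd11b2 had 3.59 and 54.3 CPM over all cells in Akita and 33.2 and 2.84 CPM in wild type, so that the libraries with shared barcodes were the high ones in both genotypes. Calb1 had 163 and 406 CPM in Akita, against 331 and 354 CPM in wild type. S100g had 1153 and 2251 CPM in Akita, against 1747 and 1547 CPM in wild type. For S100g and Calb1, as for Klk1, Akita replicate 1 was the lowest library and Akita replicate 2 the highest. Kcnj1, the ROMK potassium channel, was at 614 CPM in connecting tubule-like cells and 538 CPM in thick ascending limb-like cells. Kcnma1, which encodes the large-conductance potassium channel, had 3 UMIs in all.

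The genes whose levels ran most like Klk1 over the 18 clusters were Wfdc2 (Pearson r = 0.871 of log2(CPM + 10)), Itm2b, Epcam, Scd2, Krt7, Aebp1, Sostdc1 and S100g (r = 0.807), out of 3763 genes with at least 100 UMIs. Clusters share libraries and depth, so the correlations are descriptive only. The paralogs had r = 0.919 (Klk1b8) and 0.767 (Klk1b5). Wfdc2, a secreted protease inhibitor-like protein, had 1652 CPM in connecting tubule-like cells and 121 CPM in other cells. S100g had 62460 CPM in connecting tubule-like cells and 792 CPM in other cells. Epcam and Krt7, an adhesion molecule and a keratin of epithelia, had 307 and 401 CPM in connecting tubule-like cells and 85.7 and 68.2 CPM in other cells.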

How the data were processed

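The authors deposited raw UMI counts, 1 table per library with genes by barcodes. Per the submitters' processing notes, STAR 2.5.2b, featureCounts 1.6.0 and UMI-tools 0.5.3 were used with GRCm38. Their settings, the read length and the use of strand are not given in the sources used here. Whether reads matching several kallikrein genes were dropped or divided is therefore unknown.

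The 3 genes, the marker and pathway lists and the tests were chosen with earlier results of these data known. Strings of undetermined bases or of at least 11 identical bases were left out (1.08% to 1.33% of UMIs). Retained cells, at 54.9% to 63.1% of each file's UMIs, were clustered with scanpy 1.11.5 and leidenalg 0.10.2 (2000 variable genes, 30 components, 15 neighbours, Leiden resolution 1, no kallikrein gene). Clusters with at least 3 distal tubule markers among 50 leading genes were pooled and clustered again from Pearson residuals (500 genes, 10 components). This scheme was settled after its output was seen. In all, 2 naming schemes and 9 settings of the second clustering were looked at, 5 from log values and 4 from Pearson residuals. The choice was made on how well markers separated, but Klk1 was in view in the first rounds. Scrublet marked 6 cells as doublets, none connecting tubule-like. All were kept. Among retained barcodes, 146 shared their first 11 bases with another of their file, 11 of them connecting tubule-like.

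UMIs were summed per library, since cells are not replicates, and compared with edgeR 4.0.16 in R 4.3.3 (TMM, filterByExpr, quasi-likelihood, two-sided, adjusted p under 0.05), and with DESeq2 1.42.0 as an alternative. The script was tested on simulated data. The labels call the libraries replicates of a genotype and do not say that each came from its own animal, so p-values measure the spread between these libraries, which may be technical. The tests also treat the libraries as independent, which the barcodes shared across the genotypes put in doubt. With those left out, Akita replicate 2 kept 87524 of 755603 UMIs and Wild-type replicate 1 kept 68731 of 812747. The main p-values therefore do not measure a spread of independent libraries. The design asked for at least 8 connecting tubule-like cells in every library before a fit within that class. Shares and levels in that class were compared by exact permutation. A rule set which genes could be named: the 3 genes, every other kallikrein with a UMI, list genes with at least 20 UMIs or needed by the text, and the 8 genes most like Klk1. Not every list gene with at least 20 UMIs is named, so the list genes shown are a selection. Positions are 1-based on GRCm38 from GENCODE M21. Of the lists, Atp12a, F12, Serping1, Serpina5 and Avpr2 were not analysed here. The values of 1 gene of the kinin pathway list are not reported here.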

Additional observations from a re-analysis of the deposited data

How the results depend on the processing

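With 2 libraries a group, 1 of each sharing barcodes with the other, differences between genotypes in these genes are poorly bounded, and the connecting tubule-like class rests on 52 cells, or 41 with each shared barcode kept in 1 file. With distal cells clustered from log values, an alternative added after seeing the data, the class had 5 and 36 Akita cells and 26 and 19 wild-type cells, with Klk1 at 17498 and 44279 CPM in Akita and 34382 and 55658 CPM in wild type. In Wild-type replicate 2, counting barcodes with the same first 11 bases as 1 cell left 7 of its 13 connecting tubule-like cells. Klk1 in the class of that library then went from 68772 to 53180 CPM. With at least 500 genes per barcode, 1 and 2 Akita cells and 1 and 6 wild-type cells of the class were left. With at most 25% mitochondrial UMIs, 3 and 9 Akita cells and 4 and 7 wild-type cells of it were left. At Leiden resolutions 0.5 and 2 the class had the same number of cells and the same Klk1 count in each library.

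The log2 fold change of Klk1 over all cells, −0.03, passed no threshold in any of 15 alternatives (adjusted p 0.138 to 1) and changed sign in 7 of them. It was 1.00 with each shared barcode kept in 1 file, 0.91 with them left out, 0.10 with at least 500 genes per barcode, 0.0537 with near-identical barcodes counted as 1 and 0.0335 over every deposited barcode, and between −1.01 and 0.54 when 1 library was left out. The −1.01 came without Akita replicate 2 and the 0.54 without Akita replicate 1. With 1 library left out, the lone library of its group is assumed to vary like the others. For Klk1b5 (0.22) the sign changed with shared barcodes left out (−0.18), at least 500 genes (−0.0738) and at most 25% mitochondrial UMIs (−0.0456), and it ranged from −0.31 without Wild-type replicate 1 to 0.98 without Wild-type replicate 2. For Klk1b8 (−0.56) it changed with each shared barcode kept in 1 file (0.28) and with them left out (0.19).

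The number of genes called was 0, with 1 without a filter on low counts and 0 to 23 when 1 library was left out. The 23 came without Akita replicate 2, 14 without Wild-type replicate 1 and 1 without Akita replicate 1. Deviations of same-numbered libraries from their group means had a correlation of −0.14 across 2957 genes. With 2 libraries a group, the crossed pairing has the same value with the opposite sign. Akita replicate 2 and Wild-type replicate 1 also share barcodes, so this value cannot decide whether same-numbered libraries were paired. The fit with a replicate block called 0 genes and gave Klk1 a log2 fold change of −0.22, and crossed numbers, added after seeing the data, called 0 genes.

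Within connecting tubule-like cells, the log2 ratio of Klk1 (−0.43) moved to 0.50 with each shared barcode kept in 1 file and ranged from −1.34 (without Akita replicate 2) to 0.12 (without Akita replicate 1). The difference in their share of cells (0.0994 percentage points) became −0.972 with at least 500 genes and −0.655 with log values, and ranged from −0.930 to 1.13 over left-out libraries. The difference in their share of Klk1 UMIs (−14.1 points) became 4.48 with each shared barcode kept in 1 file and 7.14 with them left out, and ranged from −32.1 to 3.85 over left-out libraries. With shared barcodes left out, the wild-type value rests on 1 library. The edgeR fit in this class and its alternatives were not run as designed, since Akita replicate 1 had 5 cells. A fit added after seeing the data, over 108 genes, called 0 (1 at an unadjusted p under 0.05) and gave Klk1 a log2 fold change of −0.39 ± 0.34 SE (adjusted p 0.979).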
